A study of Mus musculus with 2 samples.

Results

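The genes described here encode the sodium channel subunits Scn4a, Scn7a, Scn10a, Scn3b and Scn4b and the pacemaker channels Hcn2 and Hcn4. They were taken by symbol from the 19465 genes of the probe panel, and all 7 were found once. Their levels were measured with Visium CytAssist, in which gene-specific probes on formalin-fixed tissue are captured on a grid of barcoded spots, in heart sections of 5 μm. One section came from a control mouse (α-MHC-MerCreMer+/−) and the other from a mouse with the TOP2B transgene (α-MHC-MerCreMer+/−hTOP2B LSL/−). Both mice carried the tamoxifen-activated Cre recombinase MerCreMer under the α-MHC promoter of cardiomyocytes, and both received a single intraperitoneal dose of 80 mg/kg of tamoxifen. In the transgenic mouse this dose removes a floxed STOP cassette (LSL) before a human TOP2B cDNA, which the CAG promoter then drives in the cells where Cre was active, from the Rosa26 locus. The methods give 6 weeks as the age at this dose, and the labels of these sections give neither the age nor the day of collection. With 1 section per genotype, genotype, animal, block and section plane cannot be told apart, no test between the genotypes was possible, and every interval below is a 95% interval of counting error only.

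Voltage-gated sodium channels open on depolarization and carry the fast inward current that starts and conducts the action potential of working myocardium and of the Purkinje system. Their α subunits form the pore, and the single-pass β subunits set gating and surface expression. HCN channels open on hyperpolarization and carry the funny current, which depolarizes sinoatrial cells during diastole, and Hcn4 is the main HCN channel of the sinoatrial node, whereas Hcn2 is also found in ventricular muscle and in nerves.

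The control section held 1256 spots and 14376300 UMIs (unique molecular identifiers, counts of captured probe molecules), with a median of 11335.5 UMIs per spot, and the transgenic section held 924 spots and 12953389 UMIs, with a median of 14531. Levels are given as CPM (counts per 1000000 UMIs of the section), and no member was at 0. A few spots lay apart from the tissue with no neighbor, 4 in the control and 2 in the transgenic section, and they held no UMI of any member. Markers of the labelled tissue were present, as 11 cardiomyocyte genes summed to 97828 CPM in the control section and to 51533 CPM in the transgenic one. Of these genes, 9 were lower and 2 higher in the transgenic section. Other markers differed too. The 7 erythroid genes on the panel summed to 2147 and 20441 CPM, the 10 fibroblast genes to 2085 and 6371 CPM, and the 7 atrial genes to 102 and 184 CPM. Of the 6 atrial genes with at least 20 UMIs, 3 were higher and 3 lower, and Dkk3, at 3.96 and 73.1 CPM, made up most of the difference in their sum. Mouse Top2b was at 106 and 102 CPM in the control and transgenic sections (log2 ratio −0.07, interval −0.17 to 0.04). The transgene is human, and whether the mouse probes read it is not given in the sources used here, so this does not check the labels. The 4 Y-linked genes on the panel had no UMI in either section.

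The members differed between the sections in both directions. Scn3b and Scn7a were more than 2-fold higher in the transgenic section, Scn4a, Scn4b and Hcn4 were more than 2-fold lower, Scn10a was higher by less than 2-fold, and Hcn2 was nearly level. Of the 7 members, 2 were thus at least 2-fold higher and 3 at least 2-fold lower, beside 13.7% and 5.61% of the 15236 genes that reached 20 UMIs over the sections together, a minimum that all members passed. Either way, 5 of 7 were past 2-fold, beside 19.3% of those genes. Scn10a, at a log2 ratio of 0.91, also passed 2-fold by the mean over spots (1.02), in interior spots (1.09), without the spots richest in atrial genes (1.32) and in the 50% of spots richest in cardiomyocyte genes (1.55). In the other settings it stayed below 2-fold, from 0.72 with 1 CPM added to 0.98 without the spots richest in erythroid genes. By counting intervals, 3 members lay above 0 on the log2 scale and 3 lay below, beside 39.4% and 17% of all those genes. By the direction of the ratio alone, 3 members were higher and 4 lower, beside 63.2% and 36.8%. The median log2 ratio of transgenic over control of all those genes was 0.20, so that a gene at 0 lay somewhat below the typical gene. The members were chosen with earlier results of these data known. Scn3b, Scn4b and Hcn4 reached 20 UMIs only in the section where they were higher. The shares of members beside those of all genes are thus a description, and no excess is read from them. In spots, which hold several cells, fewer cells of a type and less RNA per cell cannot be told apart, and this applies to each difference that follows.

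**Figure D1:**
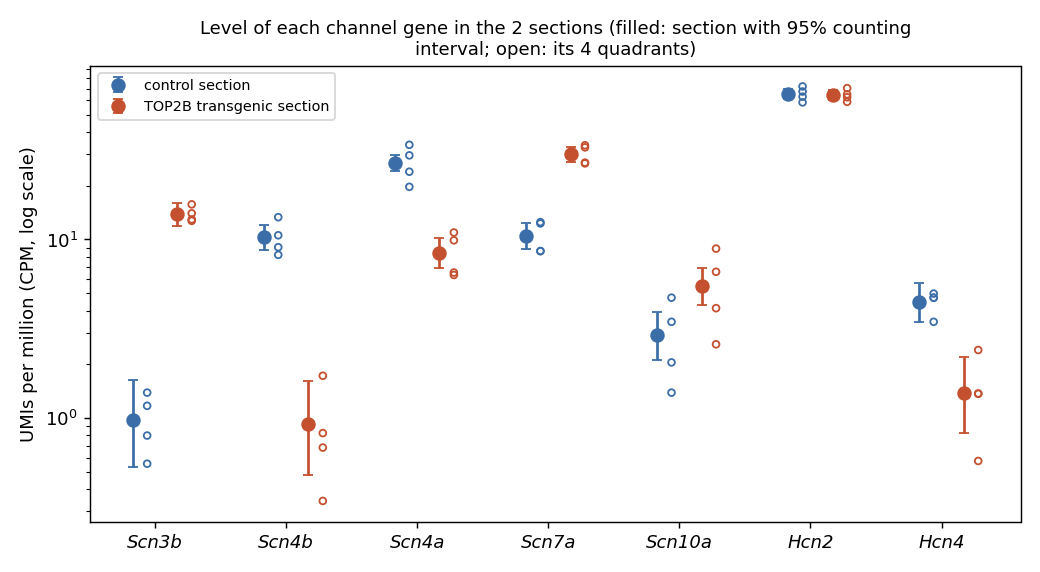
Level of each member in CPM (log axis) in the control section (blue) and the TOP2B transgenic section (red), as filled points with 95% counting intervals, and in the 4 quadrants of each section as open points. The quadrants of the 2 sections are apart for Scn3b, Scn4b, Scn4a, Scn7a and Hcn4, and they overlap for Scn10a and Hcn2. The share of all genes with quadrants apart was not counted. Levels of different genes rest on different probes and are not to be ranked.

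The β subunits differed most, and in opposite directions. Scn3b, which encodes the β3 subunit, had 14 UMIs in the control section (0.974 CPM, interval 0.532 to 1.63) and 179 in the transgenic section (13.8 CPM, interval 11.9 to 16.0). This was 14.2-fold higher in the transgenic section (log2 ratio 3.83, interval 3.04 to 4.73), and 99.5% of all genes with at least 20 UMIs had a lower ratio. Scn4b, which encodes the β4 subunit known for its part in resurgent sodium current, had 148 UMIs in the control section (10.3 CPM, interval 8.70 to 12.1) and 12 in the transgenic section (0.926 CPM, interval 0.479 to 1.62). This was 11.1-fold higher in the control section (log2 ratio −3.47, interval −4.46 to −2.63), and only 0.0459% of all genes had a lower ratio. To place the spread inside a section beside these differences, each section was divided through the middle of the tissue into 4 quadrants. Scn3b was at 0.555 to 1.39 CPM in the control quadrants and at 12.7 to 15.7 CPM in the transgenic quadrants. Scn4b was at 8.20 to 13.3 CPM in the control quadrants and at 0.344 to 1.73 CPM in the transgenic quadrants. Neither gene's quadrants overlapped between the sections, although quadrants of 1 section are not replicates of its genotype. Quadrants were compared for the members only. How common such a separation is among all genes is thus not known, here and for the members below.

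Of the UMIs of both β subunit genes, Scn3b took 8.64% in the control section (interval 4.81 to 14.1, n = 162 UMIs) and 93.7% in the transgenic section (interval 89.3 to 96.7, n = 191 UMIs). The share was 4% to 12.5% over the control quadrants and 88.2% to 97.4% over the transgenic quadrants. The make-up of the pair was thus nearly turned over between the sections. How well each probe captures its transcript is not known, so these shares compare the sections and not the amounts of the 2 subunits.

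Among the α subunits, Scn4a and Scn7a also went opposite ways. Scn4a encodes the α subunit of adult skeletal muscle and had 384 UMIs in the control section (26.7 CPM) and 109 in the transgenic section (8.41 CPM). It was 3.17-fold higher in the control section (log2 ratio −1.67, interval −1.99 to −1.36), and its quadrants did not overlap between the sections. The left quadrants had the higher Scn4a levels in both sections, at 33.9 and 29.6 against 19.7 and 23.9 CPM in the control and at 9.89 and 10.9 against 6.53 and 6.33 CPM in the transgenic section. Left and right are those of the capture grid and not of the heart. Of the 9 skeletal muscle genes with at least 20 UMIs, 8 were higher in the transgenic section (median log2 ratio 1.02, from Tnnc2 at −0.41 to Tnnt3 at 4.57), and the adult fast myosins Myh1, Myh2 and Myh4 had 6, 4 and 3 UMIs in the control section and 6, 2 and 2 in the transgenic section. The part of skeletal muscle in the Scn4a difference was not tested.

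Scn7a encodes an atypical α subunit that senses extracellular sodium rather than voltage. It had 151 UMIs in the control section (10.5 CPM) and 388 in the transgenic section (30.0 CPM), 2.85-fold more (log2 ratio 1.51, interval 1.24 to 1.79). Its quadrants did not overlap, from 8.61 to 12.5 CPM in the control against 26.7 to 33.7 CPM in the transgenic section. Of 10 fibroblast genes, 8 were higher in the transgenic section with an interval above 0, and the median log2 ratio of the 10 was 1.59, from Gsn at 0.00 to Col1a1 at 2.68. Their part in the Scn7a difference was not tested. Of the UMIs of Scn4a and Scn7a together, Scn4a took 71.8% in the control section (65.7% to 79.7% over quadrants) and 21.9% in the transgenic section (16.2% to 29.1%).

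Scn10a, the tetrodotoxin-resistant α subunit of sensory neurons, also linked to cardiac conduction, was sparse. It had 42 UMIs in the control section (2.92 CPM, interval 2.11 to 3.95) and 71 in the transgenic section (5.48 CPM, interval 4.28 to 6.91), a log2 ratio of 0.91 (interval 0.34 to 1.49). Its quadrants overlapped, at 1.39 to 4.72 CPM (control) and 2.59 to 8.89 CPM (transgenic), so the difference between the sections was no larger than that between parts of 1 section. Neuronal genes summed to 27.7 CPM in the control section and to 363 CPM in the transgenic one, where Uchl1 alone gave 3349 of their 4701 UMIs. Of the 10 with at least 20 UMIs, 9 were higher in the transgenic section, from Nefl at −0.94 to Tubb3 at 4.73. Below that minimum, Elavl4 had 13 and 3 UMIs, Chat 8 and 7 and Dbh 9 and 8 in the control and transgenic sections. Of 14 Schwann cell genes, the 13 that reached this minimum had 0.38 as their median log2 ratio, from Kcna1 at −0.81 to Ngfr at 1.65. No neuronal gene on the panel was at 0 in both sections, and the part of nerve in the Scn10a difference was not tested.

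The HCN channels parted as well. Hcn2 had 936 UMIs in the control section (65.1 CPM, interval 61.0 to 69.4) and 833 in the transgenic section (64.3 CPM, interval 60.0 to 68.8), a log2 ratio of −0.02 (interval −0.15 to 0.12). Its quadrants, at 58.5 to 71.9 and 59.0 to 70.3 CPM, covered the same range. The median gene was higher by 0.20, and with edgeR's TMM factors or DESeq2's size factors the Hcn2 log2 ratio was −0.17 with both, with the intervals −0.31 to −0.04 and −0.30 to −0.03. Hcn4 had 64 UMIs in the control section (4.45 CPM, interval 3.43 to 5.68) and 18 in the transgenic section (1.39 CPM, interval 0.824 to 2.20), a log2 ratio of −1.68 (interval −2.52 to −0.91). Its quadrants did not overlap, at 3.46 to 4.98 CPM (control) and 0.575 to 2.41 CPM (transgenic). Of the UMIs of both HCN genes, Hcn4 took 6.4% in the control section (5.58% to 6.97% over quadrants) and 2.12% in the transgenic section (0.966% to 3.57%).

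**Figure D2:**
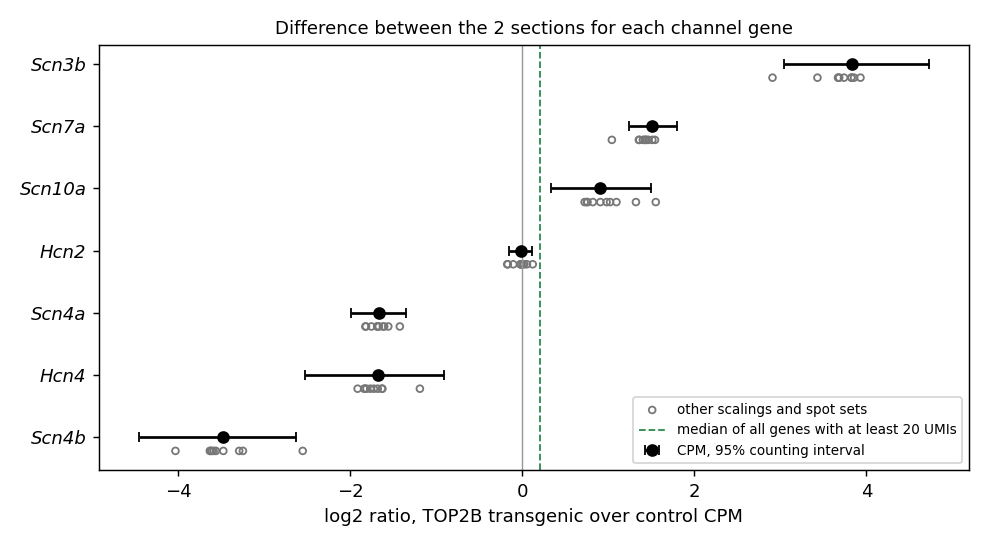
Log2 ratio of transgenic over control CPM for each member (filled points, with 95% counting intervals) and the same ratio under other scalings, weights and spot sets (open points); the dashed line is the median of all genes with at least 20 UMIs, 0.20. Scn3b, Scn7a and Scn10a stay above 0 and Scn4a, Hcn4 and Scn4b stay below 0 in all of these settings, and Hcn2 lies on both sides of 0.

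The stretch of 120 bases before the transcription start is shown for the 3 members that were more than 2-fold lower together and for Scn7a, which was higher, so that genes that differed in opposite directions can be set side by side. The sequences are those of RefSeq for GRCm38.p6, a build other than that of the counts, and 6 of the 7 members had an entry. They are written 5′ to 3′ on the strand of the gene, and capitals mark the match to any of the motifs searched on both strands. Those were the E-box CANNTG, the GATA motif GATAA, the T-box motif AGGTGT and the TATA motif TATAAA, which occurred in 40.2%, 10.5%, 5.34% and 6.34% of 32851 such windows.
Scn4b, chr9:45138504-45138623, plus strand: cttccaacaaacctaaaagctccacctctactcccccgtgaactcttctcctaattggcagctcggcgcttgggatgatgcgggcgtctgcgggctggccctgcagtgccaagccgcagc
Scn4a, chr11:106349391-106349510, minus strand: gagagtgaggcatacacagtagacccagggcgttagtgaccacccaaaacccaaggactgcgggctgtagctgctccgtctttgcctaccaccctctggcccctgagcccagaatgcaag
Hcn4, chr9:58822829-58822948, plus strand: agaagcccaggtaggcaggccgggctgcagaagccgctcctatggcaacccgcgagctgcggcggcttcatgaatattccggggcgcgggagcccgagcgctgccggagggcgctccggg
Scn7a, chr2:66784911-66785030, minus strand: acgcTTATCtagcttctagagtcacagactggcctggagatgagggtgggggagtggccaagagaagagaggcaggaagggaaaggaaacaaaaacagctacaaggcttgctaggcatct
The Scn7a window held 1 match, the GATA motif read on the other strand, and the windows of Scn4b, Scn4a and Hcn4 held none of the motifs. The GC content was 60.8% for Scn4b, 59.2% for Scn4a, 71.7% for Hcn4 and 51.7% for Scn7a. Of the members not shown, Hcn2 held 1 E-box in a window of 80.8% GC and Scn10a held no match at 56.7% GC. These windows were not measured in the sections, and a motif match is a description of letters only.

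The share of spots with at least 1 UMI followed the levels. Scn3b was found in 14 control spots (1.11%, interval 0.611 to 1.86) and 160 transgenic spots (17.3%, interval 14.9 to 19.9), and in no control spot did it reach 2 UMIs. Scn4b was found in 134 control spots (10.7%) and 12 transgenic spots (1.30%). Both β subunit genes were found in 2 spots of each section, which was 14.3% of the Scn3b-positive control spots beside 10.7% of all control spots with Scn4b, and 16.7% of the Scn4b-positive transgenic spots beside 17.3% of all transgenic spots with Scn3b. Scn4a was found in 25.5% of control and 10.9% of transgenic spots, Scn7a in 11.1% and 32.7%, and Scn10a in 3.18% and 7.25%. Hcn2 was found in 50.7% and 57.8% of spots, with up to 7 and 6 UMIs in a spot, and Hcn4 was found in 4.86% and 1.84%. Because transgenic spots were deeper, shares were recomputed after drawing 8134 UMIs from every spot, without the 140 control and 78 transgenic spots that held fewer. The thinned shares were 0.806% and 11.2% for Scn3b, 8.87% and 0.591% for Scn4b, 19.6% and 6.26% for Scn4a, 7.35% and 20.8% for Scn7a, 2.24% and 4.73% for Scn10a, and 3.14% and 1.18% for Hcn4. The same section was the higher one for these 6 genes. For Hcn2 the thinned shares were 40.0% and 40.5%, with overlapping intervals (37.1 to 42.9 and 37.2 to 43.9), so its higher share in the transgenic section was not seen at matched depth.

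**Figure D3:**
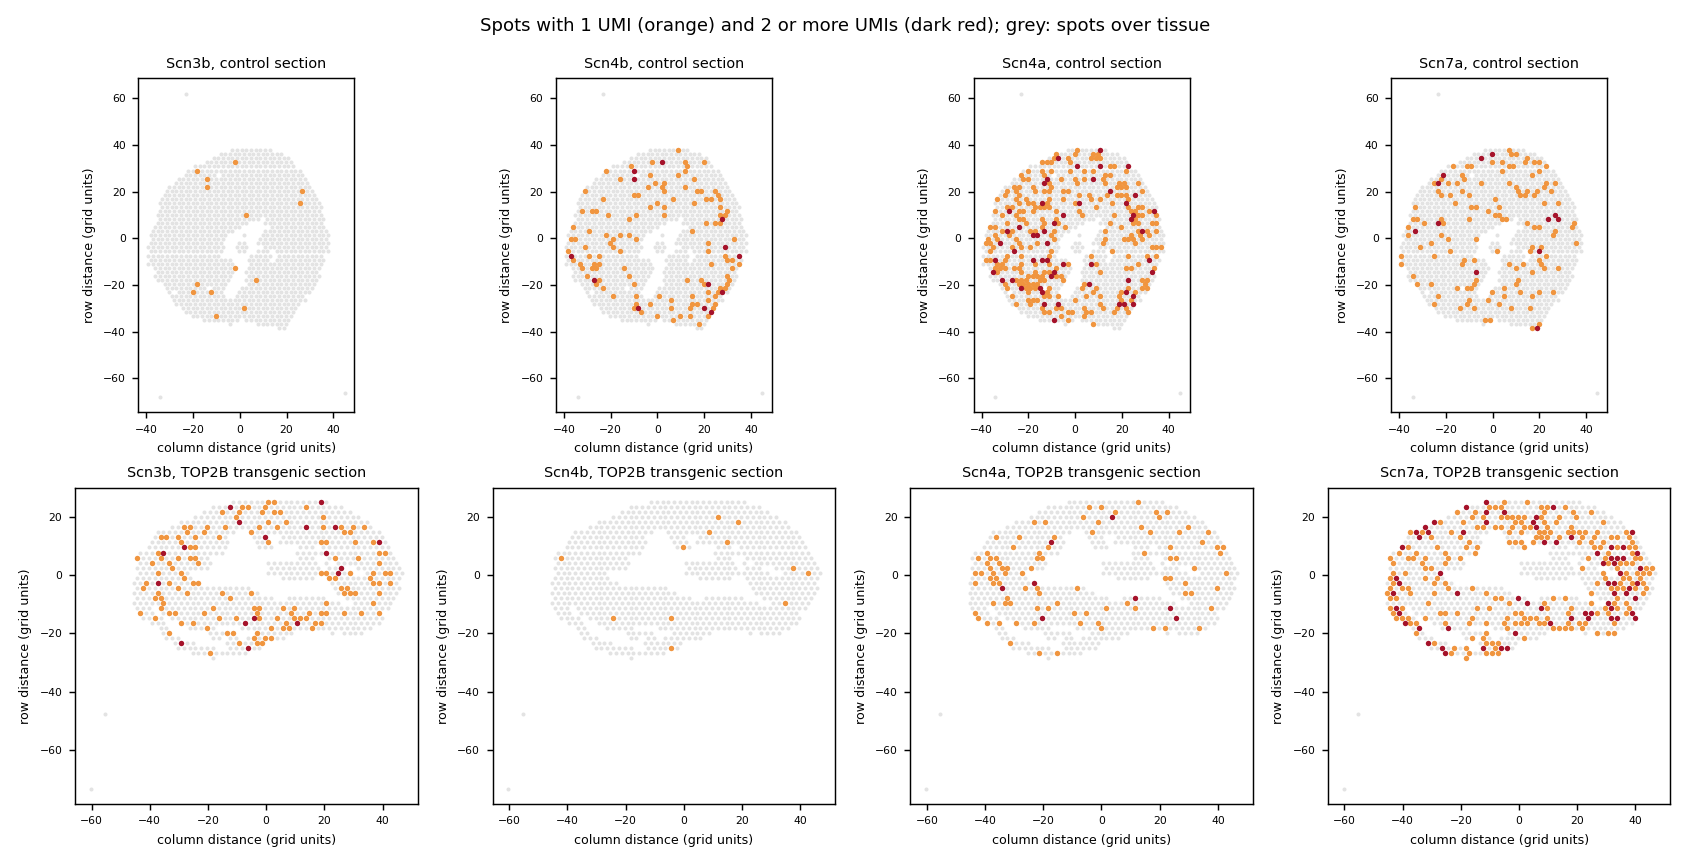
Positions of spots with 1 UMI (orange) and with at least 2 UMIs (dark red) of Scn3b, Scn4b, Scn4a and Scn7a over all tissue spots (grey), with distances in units of the capture grid from the center of the tissue, for the control section (top) and the TOP2B transgenic section (bottom). Scn3b and Scn7a spots are spread through the transgenic wall and Scn4b and Scn4a spots through the control wall, without a compact patch.

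Spatial order within a section was weak for most members. Moran's I, which is 0 for a random layout and 1 for a perfectly smooth one, had been computed by the authors for each gene and section. In the control section it was 0.0228 for Scn10a, 0.0213 for Scn4b, 0.0211 for Scn4a and 0.0068 for Hcn4, and it was 0.0016 for Scn7a, 0.0016 for Hcn2 and 0.0003 for Scn3b, beside a median of 0.0024 over 12242 genes. In the transgenic section it was 0.0711 for Scn7a, 0.0629 for Hcn2, 0.0516 for Scn10a and 0.0201 for Scn4a, and it was 0.0034 for Scn3b, −0.0017 for Hcn4 and −0.0091 for Scn4b, beside a median of 0.0198 over 12441 genes. The highest of these values are still small, and the median itself was higher in the transgenic section, so the 2 sections cannot be compared gene by gene on this score. Scn10a exceeded 91.8% of the control genes on this score, beside 90.7% for Scn4b and 90.5% for Scn4a. In the transgenic section Scn10a exceeded 77.1% of the genes, below Scn7a at 83.5% and Hcn2 at 81.2%.

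Next to a Scn10a-positive spot, 6.57% of the control neighbors and 11.6% of the transgenic neighbors were positive, against 3.18% and 7.25% of all spots. In the control section the shares were 13.6% against 10.7% for Scn4b and 6.67% against 4.86% for Hcn4, while they were 10.7% against 11.1% for Scn7a and 0% against 1.11% for Scn3b. No transgenic neighbor was positive for Scn4b (0% against 1.30%) or Hcn4 (0% against 1.84%). For Hcn2 they were 52.0% against 50.7% in the control and 62.2% against 57.8% in the transgenic section. Spots high for a member, that is among the highest 5% by UMIs per 10000 and with at least 2 UMIs, formed no large group. The largest connected group was 4 spots for Hcn2 in both sections and 2 spots for Scn4a in the control section, for Scn3b in the transgenic section and for Scn7a in both. For the remaining members and sections the high spots, if any, stood alone. Scn10a had only 2 and 4 high spots and Hcn4 only 3 and 1 in the control and transgenic sections. Control Scn3b and transgenic Scn4b had none. For these sparse genes the minimum of 2 UMIs left too few spots to show whether they group. Among the highest 10% of spots, the largest group was 4 spots for transgenic Scn7a, 6 for transgenic Hcn2 and 5 for control Hcn2, and the others were as before.

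Scn10a and Hcn4 were higher along the tissue border. Edge spots, which had fewer than 6 tissue neighbors and so also lined the cavities, numbered 230 in the control and 311 in the transgenic section. Scn10a was at 9.43 CPM in edge spots and 1.86 CPM in interior spots of the control section (log2 ratio of edge over interior 2.34, interval 1.38 to 3.28), and at 9.34 and 3.97 CPM in the transgenic section (1.23, interval 0.52 to 1.94). Edge levels were thus alike in both sections, and the interior level was higher in the transgenic section. Hcn4 was at 9.43 CPM in edge and 3.64 CPM in interior spots of the control section (1.37, interval 0.52 to 2.18) and at 2.47 and 0.966 CPM in the transgenic section (1.35, interval −0.15 to 2.86). Both its edge and its interior level were lower in the transgenic section. Scn7a was at 36.3 and 27.5 CPM in edge and interior spots of the transgenic section (0.40, interval 0.09 to 0.71). For the other members, and for Scn7a in the control section, the interval of this ratio included 0.

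**Figure D4:**
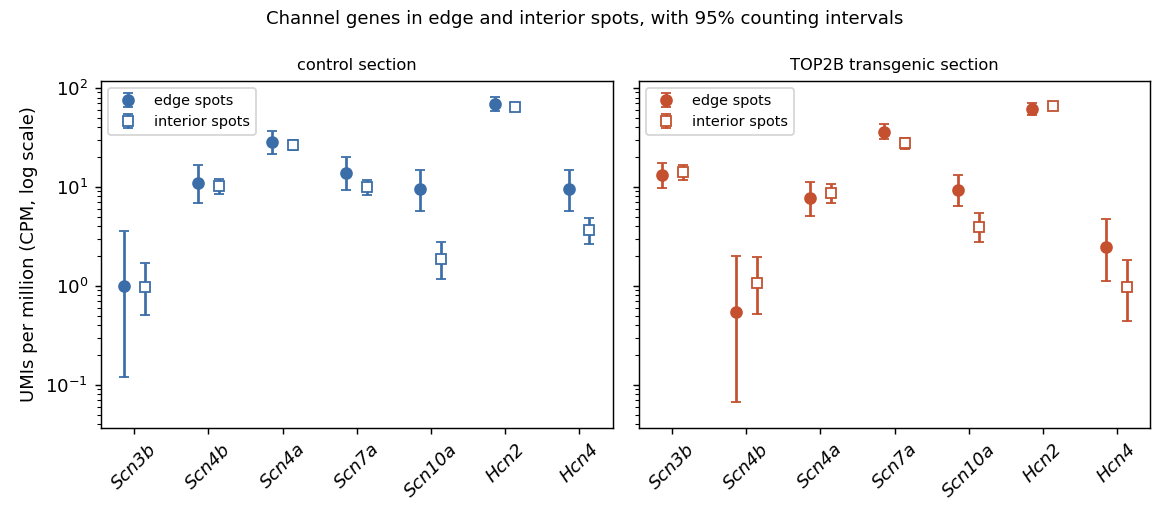
Level of each member in CPM (log axis) in edge spots (filled circles) and interior spots (open squares) of the control section (left) and the TOP2B transgenic section (right), with 95% counting intervals. Scn10a in both sections and Hcn4 in the control section are higher at the edge, with intervals that do not overlap for either gene.

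To see which tissue neighborhoods held the members, each section's 10% of spots richest in the UMIs of a marker list was compared with its other spots, for 12 lists. Of the 168 comparisons, 24 had an interval off 0. These comparisons were made for the members only, so the share of all genes with such intervals is not known. The sets can share spots, and among so many intervals some can lie off 0 by counting error alone. The counts are thus a description, and no excess is read from them. Scn7a had the most, in 8 of its 24 comparisons. It was higher in the spots richest in fibroblast genes, at 19.4 against 9.67 CPM in the control section (log2 ratio 1.00, interval 0.31 to 1.64) and 47.7 against 28.0 CPM in the transgenic section (0.77, interval 0.36 to 1.17). In the transgenic section it was lower in the spots richest in cardiomyocyte genes, at 16.2 against 31.5 CPM (−0.96, interval −1.67 to −0.33). It was also higher in the transgenic spots richest in atrial genes (47.9 against 28.0 CPM), smooth muscle genes (44.5 against 28.2 CPM), epicardial genes (42.1 against 28.8 CPM) and the wider list of conduction genes (40.1 against 28.9 CPM), and lower in those richest in skeletal muscle genes (21.0 against 31.1 CPM). Of the transgenic spots richest in epicardial, fibroblast, atrial and wider-list conduction genes, 71.7%, 47.8%, 43.5% and 43.5% lay at the edge. For smooth muscle genes the share was 32.6%, and for all transgenic spots it was 33.7%. In the transgenic section, Scn4a showed the reverse order to Scn7a for the cardiomyocyte and fibroblast genes. It was there at 14.7 against 7.72 CPM in the spots richest in cardiomyocyte genes (0.92, interval 0.13 to 1.65). In those richest in fibroblast genes it was at 3.08 against 9.01 CPM (−1.55, interval −3.45 to −0.15). In the control section, Scn4a was at 30.7 against 26.2 CPM and at 19.4 against 27.4 CPM in these sets, and both intervals included 0. The cardiomyocyte-rich contrasts are unlike. Those genes took a mean of 11.1% of UMIs inside and 9.55% outside in the control section, and 7.35% and 4.78% in the transgenic section. Hcn2, like Scn4a, was higher in the cardiomyocyte-rich spots of the transgenic section, at 83.3 against 62.2 CPM (0.42, interval 0.12 to 0.71). Of the 11 cardiomyocyte genes, 9 were lower in the transgenic section, so its spots richest in them need not hold the most cardiomyocytes. In the spots richest in atrial genes Hcn2 was higher in the control section, at 81.9 against 63.5 CPM. In the transgenic section it was lower, at 49.5 against 65.9 CPM. The atrial sum that picked these spots rested on different genes in each section. Tbx5 and Stard10 gave 741 and 366 of its 1472 control UMIs, and Dkk3 gave 947 of its 2386 transgenic UMIs. The atrial-rich sets of the sections are thus not alike and need not be atrial tissue, and the difference between the sections was not tested.

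Scn10a in the control section was concentrated in several overlapping sets of spots. It was at 12.0 against 2.06 CPM in the 126 spots richest in atrial genes (log2 ratio 2.55, interval 1.53 to 3.51). It was at 10.5 against 2.21 CPM in those richest in fibroblast genes and at 8.70 against 2.31 CPM in those richest in skeletal muscle genes. In those richest in the wider list of conduction genes it was at 6.55 against 2.58 CPM (1.34, interval 0.02 to 2.48). Smoc2 made up 2245 of the 3940 control UMIs and 2160 of the 3924 transgenic UMIs of that wider list. For every member, the spots called richest in it were thus picked largely by Smoc2 and need not be conduction tissue. Of the control spots richest in fibroblast genes 56.3% lay at the edge, with 28.6% for skeletal muscle genes and 39.7% for the wider conduction list. In these sets the edge was not separated from the marker genes. Of the 126 atrial-rich spots 42.1% lay at the edge, and of all control spots 18.3% did. Split by both, Scn10a was at 25.2 CPM in atrial-rich edge spots (11 UMIs in 53 spots), 5.07 CPM in the other edge spots, 4.94 CPM in atrial-rich interior spots and 1.64 CPM in the other interior spots. Its level was highest where both features met. In the transgenic section, where other genes led the atrial sum, the corresponding levels were 10.9, 9.12, 7.38 and 3.65 CPM. The comparison of atrial-rich with other spots there had an interval that included 0. In the spots richest in neuronal genes, Scn10a was at 4.67 against 2.75 CPM in the control section. The transgenic levels were 3.52 against 5.72 CPM, and both intervals included 0. Uchl1 gave 142 of the 398 control UMIs and 3349 of the 4701 transgenic UMIs of that list. These neuron-rich sets are thus not alike and need not be nerve. In the spots richest in Schwann cell genes, Scn10a was at 5.16 against 2.69 CPM (control) and 8.23 against 5.20 CPM (transgenic). Both of these intervals also included 0. For Hcn4 in the control section, the comparison of atrial-rich with other spots rested on 5 UMIs inside (−0.16, interval −1.84 to 1.14). Hcn4 was at 6.89 CPM in atrial-rich edge spots (3 UMIs, interval 1.42 to 20.1) and 10.1 CPM in the other edge spots (interval 5.79 to 16.5). It was at 2.47 CPM in atrial-rich interior spots (2 UMIs) and 3.72 CPM in the other interior spots. These counts are too few to show whether Hcn4 follows the atrial genes. Scn3b in the transgenic section was at 21.0 against 12.9 CPM in the spots richest in skeletal muscle genes (0.70, interval 0.09 to 1.28). Myl1 made up 1234 of the 1868 control UMIs and 25418 of the 29400 transgenic UMIs of the skeletal muscle list. For every member, the spots called richest in skeletal muscle genes were thus picked mostly by Myl1. In no other comparison of its 24 did Scn3b have an interval off 0. The other intervals off 0 were these. Control Scn4b was higher in smooth-muscle-rich spots (15.9 against 9.66 CPM) and lower in erythroid-rich spots (3.62 against 10.85 CPM). Control Hcn4 was higher in erythroid-rich spots (9.05 against 4.07 CPM). Transgenic Hcn2 was lower in neuron-rich spots (45.1 against 66.7 CPM) and Scn4a in macrophage-rich spots (3.08 against 9.01 CPM). Transgenic Scn10a was lower in smooth-muscle-rich spots (0.718 against 6.06 CPM).

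Spots that might hold conduction tissue were sought with 7 genes known from the sinoatrial node, the atrioventricular node or the Purkinje system, none of them a member: Cacna2d2, Cntn2, Cpne5, Gjd3, Isl1, Shox2 and Tbx3. A spot with UMIs of at least 2 of them is called here a conduction-gene spot. There were 43 in the control section (3.42% of spots) and 39 in the transgenic section (4.22%). Compact groups of at least 3 adjacent conduction-gene spots were rare, with 2 groups in each section, of 4 and 3 spots in the control and 3 and 3 spots in the transgenic section. Tbx3, the transcriptional repressor that keeps nodal cells from taking on a working phenotype, made up most of the UMIs of these genes, with 374 of 531 in the control and 265 of 427 in the transgenic section. Such small groups are at the limit of what 1 section of spots can show, and no staining was used to place a node or bundle.

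**Figure D5:**
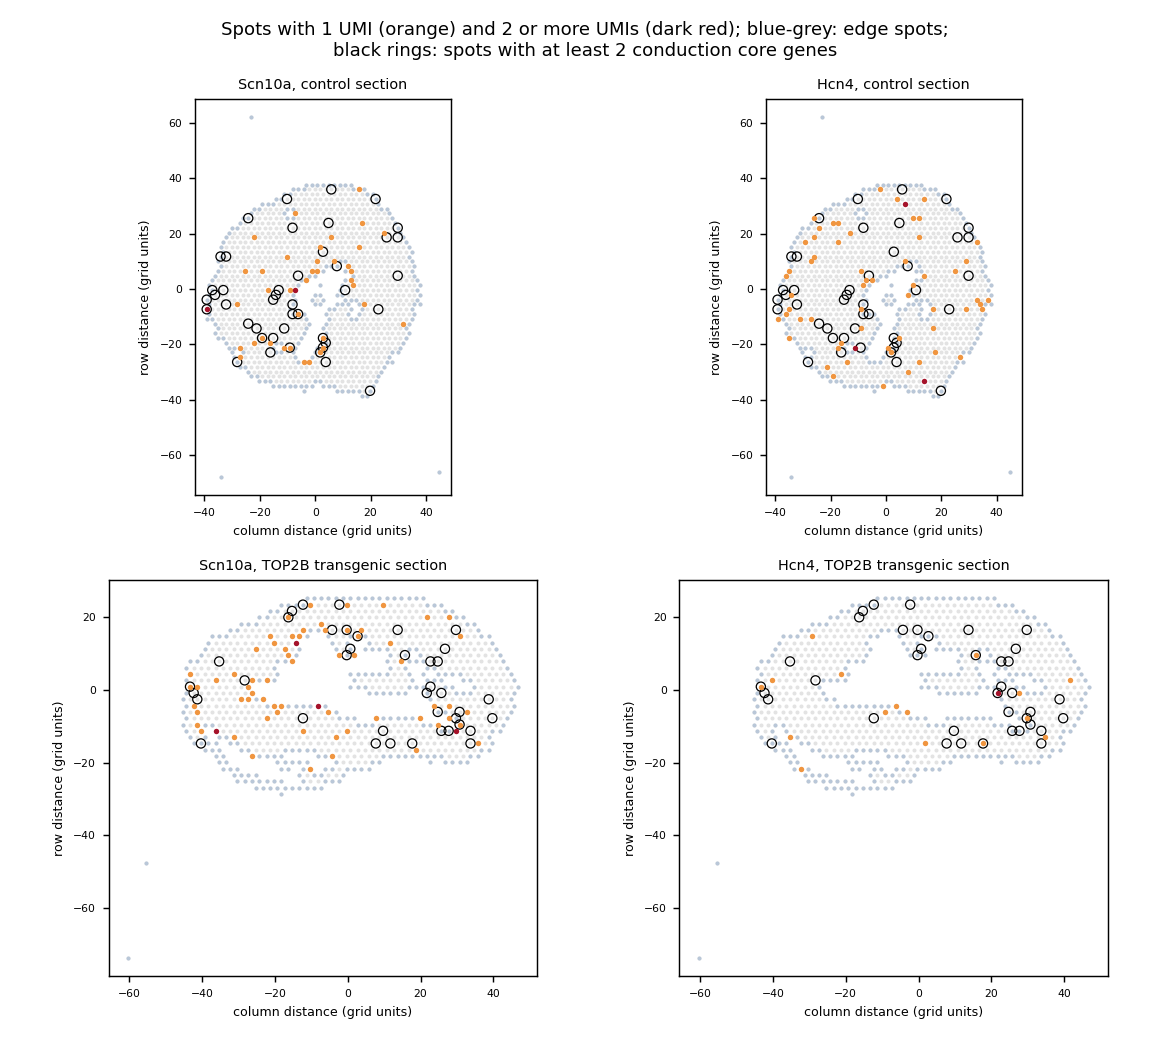
Positions of spots with 1 UMI (orange) and at least 2 UMIs (dark red) of Scn10a (left) and Hcn4 (right), with edge spots in blue-grey, interior spots in light grey and conduction-gene spots ringed in black, for the control section (top) and the TOP2B transgenic section (bottom), in units of the capture grid from the tissue center. Of the 40 Scn10a-positive control spots 7 are ringed, and of the 17 Hcn4-positive transgenic spots 5 are. Of the 61 Hcn4-positive control spots 1 is ringed, and of the 67 Scn10a-positive transgenic spots 5 are. Of all control and transgenic spots, 3.42% and 4.22% are ringed.

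By this rule, Scn10a in the control section and Hcn4 in the transgenic section were higher in these spots than elsewhere. Over all spots of the wider rule given below, neither difference was kept beyond counting error. Edge spots, which have fewer neighbors, meet that rule less easily. In the control section the conduction-gene spots held 8 of the 42 Scn10a UMIs (19.0%) and 3.60% of all UMIs, so that Scn10a was at 15.5 CPM inside and 2.45 CPM outside (log2 ratio 2.66, interval 1.33 to 3.80). Of the 7 Scn10a-positive spots among them, 4 were also atrial-rich, beside 8 of all 43 control conduction-gene spots. This result thus shares spots with that for the atrial-rich spots. The control conduction-gene spots held 1 of the 64 Hcn4 UMIs, at 1.93 CPM inside and 4.55 CPM outside (−1.23, interval −6.56 to 1.30). In the transgenic section the conduction-gene spots held 6 of the 18 Hcn4 UMIs (33.3%) and 5.02% of all UMIs, at 9.23 CPM inside and 0.975 CPM outside (3.24, interval 1.54 to 4.77). For Scn10a in the transgenic section the levels were 7.69 CPM inside and 5.36 CPM outside (0.52, interval −1.15 to 1.81). Scn3b in the transgenic section was at 24.6 CPM inside and 13.2 CPM outside (0.89, interval 0.05 to 1.64), and none of its 14 control UMIs lay inside. For Scn4a, Scn7a, Scn4b and Hcn2 the intervals included 0 in both sections.

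The compact groups themselves held few member UMIs. The larger control group, of 4 spots with 3 at the edge, held UMIs of Cacna2d2, Cntn2, Isl1 and Tbx3 (1, 4, 1 and 4), and with them 3 UMIs of Scn10a, 7 of Hcn2, 2 of Scn4a and 1 of Hcn4. Its atrial genes were at 303 CPM and its fibroblast genes at 4276 CPM, both above the section's sums. The other control group, of 3 interior spots, held Cntn2, Isl1 and Tbx3 (1, 2 and 3) and of the members only Hcn2, with 5 UMIs. Over both control groups, Scn10a was at 34.9 CPM against 2.73 CPM elsewhere, on 3 UMIs (log2 ratio 3.68, interval 1.34 to 5.33), and Hcn2 at 140 CPM against 64.7 CPM, on 12 UMIs (1.11, interval 0.15 to 1.92). Each of the transgenic groups held 1 UMI of Hcn4 and 1 of Scn10a, together with Cacna2d2, Cntn2, Cpne5 and Tbx3. Their fibroblast genes were at 8849 and 12515 CPM and their atrial genes at 431 and 306 CPM. The section's sums were 6371 and 184 CPM. Over both transgenic groups, Hcn4 was at 19.0 CPM against 1.25 CPM elsewhere, on 2 UMIs (3.93, interval 0.77 to 6.02), and Scn7a at 76.1 CPM against 29.6 CPM, on 8 UMIs (1.36, interval 0.14 to 2.36). Scn4b had no UMI in any of the 4 groups. With a wider rule, a spot whose own and adjacent spots held at least 3 of the genes, there were 165 control (13.1%) and 194 transgenic spots (21.0%). Edge spots pool fewer adjacent spots under this rule, and Scn10a and Hcn4 were higher at the edge. Under it, Scn10a was at 5.36 CPM inside and 2.56 CPM outside in the control section (1.07, interval −0.12 to 2.13). In the transgenic section it was at 8.38 and 4.61 CPM (0.86, interval 0.10 to 1.59). In groups of at least 3 such adjacent spots, Scn10a was at 5.99 against 2.52 CPM elsewhere in the control section (1.25, interval 0.06 to 2.31). In such transgenic groups it was at 8.54 against 4.59 CPM (0.90, interval 0.13 to 1.63). Whether the transgenic Scn10a interval included 0 thus depended on the rule. In the control section, under the wider rule, it depended on counting all such spots or only groups. Over all spots of the wider rule, Hcn4 was at 2.68 CPM inside and 1.00 CPM outside in the transgenic section (1.42, interval −0.12 to 2.91). It was at 5.90 and 4.24 CPM in the control section (0.48, interval −0.61 to 1.43). Transgenic Scn3b was at 13.4 CPM inside and 13.9 CPM outside (−0.06, interval −0.60 to 0.46), so its difference under the narrower rule was not seen under the wider one.

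The genes whose levels over spots were most like a member's were sought for members with at least 200 UMIs in the section, by Pearson correlation over spots. The correlations were low and describe spots of 1 section that share depth and tissue. In the transgenic section, Igfbp7, Ccn5, Apoe and Comp were among the genes most like Scn7a (r from 0.25 to 0.26 over 924 spots), of which Ccn5 and Comp encode matrix proteins. Hcn2 was there most like Uqcrc1, Slc25a4, Pln, Ndufv3 and Acadl (r from 0.21 to 0.22), of which Uqcrc1 and Ndufv3 belong to the respiratory chain and Pln encodes phospholamban. In the control section the highest r was 0.11 for Scn4a, with Gatad1, and 0.11 for Hcn2, with Atp1b1, over 1256 spots, too weak to be read.

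Genes that anchor, modify or traffic these channels also differed in both directions. Of 18 such partners, 8 were higher and 10 lower in the transgenic section, with a median log2 ratio of −0.14 beside 0.20 for all genes. Intervals lay above 0 for 5 of them and below 0 for 8, beside 39.4% and 17% of all genes. At least 2-fold higher were 2 and at least 2-fold lower 3, beside 13.7% and 5.61%. Ank2, the ankyrin that anchors ion transporters in cardiomyocytes, was lowest, at 421 and 108 CPM in the control and transgenic sections (−1.96, interval −2.05 to −1.88). Fgf11, a member of the intracellular fibroblast growth factors that bind the sodium channel's tail, was highest, at 4.73 and 17.2 CPM (1.86, interval 1.47 to 2.28). Of the 11 other genes of the sodium channel and HCN families on the panel, 7 had at least 20 UMIs, of which 5 were higher and 2 lower, with a median log2 ratio of 0.77; 3 were at least 2-fold higher and none was at least 2-fold lower, beside the same shares of all genes. The 7 used for the conduction-gene spots had 3 higher and 4 lower, a median of −0.01 and none past 2-fold, from Isl1 at −0.95 (15 and 7 UMIs) to Cpne5 at 0.85 (8 and 13 UMIs). Over a wider list of 16 conduction genes, 10 were higher and 6 lower, with a median of 0.42 and Ntm, a cell adhesion gene, highest at 1.52 (27 and 70 UMIs).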

How the data were processed

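The deposited values are UMI counts, not normalized, that the authors made with Space Ranger 2.0.0 for 1 control and 1 TOP2B transgenic section. The build GRCm39 (mm39) stands in the submitters' processing notes, and the probe set is not given in the sources used here. Moran's I is a score deposited by the authors and was used as given. The sections share 725 spot barcodes, which are positions of the array. Counts were summed over the spots over tissue and divided by the section total (CPM). Ratios have exact conditional binomial intervals, levels exact Poisson intervals and shares Clopper-Pearson intervals, all of counting error only; UMIs of 1 section are not independent animals, so no p-value was computed and the study's test over spots was not repeated. Lists are described by genes with at least 20 UMIs. Named are all members, the highest and lowest gene of the lists that bear on a member, genes a result turns on, genes among the 5 most similar and Top2b. Members and lists were chosen with earlier results of these data known. Other genes of the channel families, and some genes the rule would name, are not reported here. Alternatives were edgeR 4.0.16 TMM factors and DESeq2 1.42.0 size factors (R 4.3.3, used for scaling only), totals without the 50 most abundant genes, 1 CPM added, the mean over spots of UMIs per 10000, interior spots, spots with at least 1000 UMIs, the 50% of spots richest in cardiomyocyte genes, and, chosen after seeing the data, all spots but the 10% richest in erythroid or in atrial genes. The scripts, tested on simulated data, ran in Python 3.11.15 with scipy 1.17.1, numpy 2.4.6 and pandas 2.3.3. Image scale factors were not used.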

Additional observations from a re-analysis of the deposited data

How the results depend on the processing

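The count of members higher in the transgenic section was 3 of 7, and 4 in interior spots, with the 50% of spots richest in cardiomyocyte genes and, in the alternatives chosen after seeing the data, without the spots richest in erythroid or in atrial genes, as Hcn2 crossed 0. The log2 ratio ranged from −0.17 to 0.12 for Hcn2, 2.91 to 3.93 for Scn3b, −4.03 to −2.55 for Scn4b, −1.82 to −1.42 for Scn4a, 1.04 to 1.54 for Scn7a, 0.72 to 1.55 for Scn10a and −1.91 to −1.19 for Hcn4, and no direction but that of Hcn2 changed. Adding 1 CPM brought Scn3b to 2.91 and Scn4b to −2.55, and the spots richest in cardiomyocyte genes brought Scn7a to 1.04 and Scn10a to 1.55. TMM, DESeq2 and the totals without the 50 most abundant genes moved the median of all genes by −0.16, −0.15 and −0.09. With the wider rule for conduction-gene spots, groups of at least 3 spots numbered 21 in the control and 16 in the transgenic section in place of 2 and 2. With genes of at least 1 UMI in place of 20, 13.2% were at least 2-fold higher and 8.08% lower, in place of 13.7% and 5.61%. Depth limits Scn10a, Hcn4, control Scn3b and transgenic Scn4b, whose levels rest on 12 to 71 UMIs. No paired analysis was possible because each genotype had 1 section and no test was made.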
